A study of Homo sapiens with 18 samples.

Results

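Antisense long noncoding RNAs (lncRNAs) are transcribed from the strand opposite to a gene, and by convention carry that gene's name with the suffix -AS and a number. The rows described here were chosen by name and by summed count. They are those of the deposited count table whose symbol ends in -AS and 1 digit, leaving out the HOX antisense rows and 2 rows excluded by name (PAX8-AS1 and ZNF433-AS1), and whose counts summed to at least 300 over 6 RNA-seq libraries. Of 57133 rows, 1217 carried such a symbol, 1205 remained after the exclusions, and 90 reached the summed count. Each was set beside the row of the gene named before -AS, its partner, and 89 of the 90 partners had a row. The libraries came from PGP1, an established human induced pluripotent stem cell (PSC) line kept in mTeSR1 medium on Matrigel. There were 2 libraries of wild-type (WT) cells, 2 of the clone PCGF6-KO1 and 2 of the clone PCGF6-KO2. Both clones had been made from PGP1 by CRISPR-Cas9 deletion in the first exon of PCGF6 on both alleles, so that each clone is 1 editing event. The labels do not say whether replicate libraries came from separate cultures, so p-values measure only the spread between these libraries.

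PCGF6 is a subunit of a variant Polycomb repressive complex 1, PRC1.6, which holds the DNA-binding proteins E2F6 and MAX with its partner MGA and is known as a repressor of germ cell and developmental genes in PSCs. MAX proteins bind the E-box CACGTG, and E2F6 binds E2F sites such as GCGGGAA. Antisense lncRNAs fall into several arrangements. Some start head-to-head with their partner and can share a promoter with it, and others start inside or beyond the partner and run across it. Some are known to act on the partner or on other RNAs, and for many no function is known.

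By GENCODE release 44 on GRCh38, 89 of the 90 antisense rows and 87 of the pairs could be placed. In 33 pairs the 5′ ends lay head-to-head within 1000 bases, and in the other 54 the antisense gene lay on the opposite strand in another arrangement. The distance between the 5′ ends ran from 5 to 852307 bases. Of the antisense rows, 86 were annotated as lncRNA. NCBP2-AS2 was annotated as protein coding, and EMC3-AS1 and TP73-AS1 as transcribed pseudogenes. The share of antisense exon bases that fell within exons of the partner had a median of 2.17% and a maximum of 51.2% (EPB41L4A-AS1), was at most 10% in 65 pairs and was over 25% in 8. The strand setting of the counting is not given in the sources used here. Reads of a gene and of its antisense partner therefore cannot be told apart where their exons overlap.

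Promoter windows of 300 bases, from 250 before to 50 after the start, were available from RefSeq (GRCh38.p14) for 58 of the antisense rows and 53 of the partners. The E-box CACGTG stood in 6 of the 58 antisense windows (10.345%), against 7.256% of all 35116 windows. Of these 6 windows, 4 belonged to rows not called in PCGF6-KO by the test given below. The E2F-type motif GCGGGAA, searched on both strands, stood in 5 of the 58 (8.621%), against 6.553% of all windows. In the 53 partner windows the E-box stood in 3 (5.66%) and GCGGGAA in 5 (9.434%). These matches are a description of the letters in the window and not evidence of binding. The first sequence is shown because FOXD3-AS1 and FOXD3 fell together in PCGF6-KO and their RefSeq starts, 109 bases apart and divergent, both lie in it. Its capitals mark a single E-box at position 63322511, which begins 56 bases before the FOXD3 start and 58 before the FOXD3-AS1 start. The second is the window of DLGAP1-AS2, the other antisense row with an E-box (in capitals) among those that fell. The third is the window of POT1, whose antisense row rose while POT1 did not pass the test, with the 49 bases from one start to the other in capitals.
FOXD3 (chr1:63322317-63322616, forward strand): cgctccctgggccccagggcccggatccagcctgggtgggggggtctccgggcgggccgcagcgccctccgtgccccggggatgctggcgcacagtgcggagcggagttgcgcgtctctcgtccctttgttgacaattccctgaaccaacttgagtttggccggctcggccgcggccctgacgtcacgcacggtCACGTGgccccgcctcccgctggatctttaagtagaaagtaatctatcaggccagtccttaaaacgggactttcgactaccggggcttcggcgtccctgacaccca
DLGAP1-AS2 (chr18:3603487-3603786, forward strand): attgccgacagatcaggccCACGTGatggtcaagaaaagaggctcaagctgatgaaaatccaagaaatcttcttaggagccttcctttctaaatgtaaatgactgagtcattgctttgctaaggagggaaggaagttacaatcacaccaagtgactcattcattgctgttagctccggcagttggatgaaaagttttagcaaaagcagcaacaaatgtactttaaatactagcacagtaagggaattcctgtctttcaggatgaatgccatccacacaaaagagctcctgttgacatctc
POT1 (chr7:124929776-124930075, reverse strand): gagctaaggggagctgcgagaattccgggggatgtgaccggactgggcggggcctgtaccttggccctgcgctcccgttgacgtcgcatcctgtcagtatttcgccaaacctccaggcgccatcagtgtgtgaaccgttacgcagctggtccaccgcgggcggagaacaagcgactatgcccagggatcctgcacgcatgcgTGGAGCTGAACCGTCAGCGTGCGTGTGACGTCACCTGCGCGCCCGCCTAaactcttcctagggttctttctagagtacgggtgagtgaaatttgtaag

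The libraries held between 15877396 counts (WT replicate 1) and 18918609 counts (PCGF6-KO1 replicate 1), and the antisense rows took 0.133 to 0.155% of each. PCGF6 itself had 268 and 300 counts in WT, 99 and 103 in PCGF6-KO1 and 187 and 159 in PCGF6-KO2, all 4 PCGF6-KO libraries below both WT libraries. Marker genes moved with genotype. Of 9 tested mesoderm and endoderm markers 9 were higher in PCGF6-KO, and their summed level was 6.71 to 7.31 CPM (counts scaled by the TMM library size) in WT and 692 to 936 in PCGF6-KO, with MESP1, HAND1 and SOX17 at 0 in both WT libraries. Of 10 pluripotency markers 3 were lower (SOX2, DNMT3B and ZFP42) and none higher. The sum over the 10 was 10100 to 10500 CPM in WT and 7260 to 7880 in PCGF6-KO. DNMT3B, the most abundant in WT, went from 48123 and 51479 counts to between 18592 and 30682. By log2 fold change POU5F1 (0.01), TDGF1 (0.00), SALL4 (0.19) and NANOG (0.40) did not fall. LIN28A (−0.29), L1TD1 (−0.40) and DPPA4 (−0.44) were not called. Of 6 tested neuroectoderm markers 2 were higher (LHX2 and NES) and 3 lower (OTX2, HESX1 and ZIC2). The sum over this list was 584 to 621 CPM in WT and 728 to 829 in PCGF6-KO. The higher sum rested on NES, with 4508 and 5381 counts in WT and 9987 to 12859 in PCGF6-KO. ZIC2 went from 3588 and 3482 counts to between 1452 and 2079, and OTX2 from 1173 and 1203 to between 490 and 574. The part of the marker genes in the differences reported here was not tested. In bulk RNA, fewer cells of a type and less RNA per cell cannot be told apart.

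The levels of the antisense rows spanned a wide range. Their summed counts ran from 313 to 17527 with a median of 713.5. The most abundant was LRRC75A-AS1, which GENCODE calls SNHG29, a host transcript of small nucleolar RNAs. It had 190 ± 4.42 CPM in WT (SD, n = 2), 135 ± 1.87 in PCGF6-KO1 (n = 2) and 181 ± 1.19 in PCGF6-KO2 (n = 2). OIP5-AS1, a conserved cytoplasmic lncRNA also known as Cyrano, followed with 132 ± 0.764 CPM in WT (n = 2) and 132 ± 13.4 in PCGF6-KO (n = 4). HDAC2-AS2 had 99.4 ± 3.34, FGD5-AS1 93.9 ± 1.80 and THAP9-AS1 63.9 ± 0.894 CPM in WT (n = 2 each). Per kb of deposited gene length, LRRC75A-AS1 had 50.7 CPM in WT and FOXD3-AS1 46.4, ahead of FGD5-AS1 with 18.3, THAP9-AS1 with 14.5, HDAC2-AS2 with 12.3 and OIP5-AS1 with 10.4.

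Most antisense rows had fewer counts than their partner in WT, and 25 of 89 had more. LRRC75A-AS1 had 21.2 times the counts of LRRC75A, and CCDC144NL-AS1 12.8 times those of CCDC144NL. The ratio in WT was 8.41 for OIP5-AS1 over OIP5, a centromere protein, 6.54 for ASB16-AS1 over ASB16 and 5.29 for THAP9-AS1 over THAP9, a gene derived from a DNA transposase. Pairs whose partner had few WT counts were not ranked. Among them, the ratio was higher for NUTM2B-AS1 (168, with 3 partner counts), NUTM2A-AS1 (50.2, with 16 partner counts) and BBOX1-AS1 (28, with 3 partner counts). The promoter windows of NUTM2A and NUTM2B hold the same 300 bases. How reads that match both genes were counted is not given, so the counts of these partners are uncertain. In contrast, SEMA6A-AS1 amounted to 0.98% of the counts of SEMA6A. Per kb of gene length the tally was 27 of 89, and 12 pairs changed side: 7 were above their partner only per kb and 5 only in counts.

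**Figure D1:**
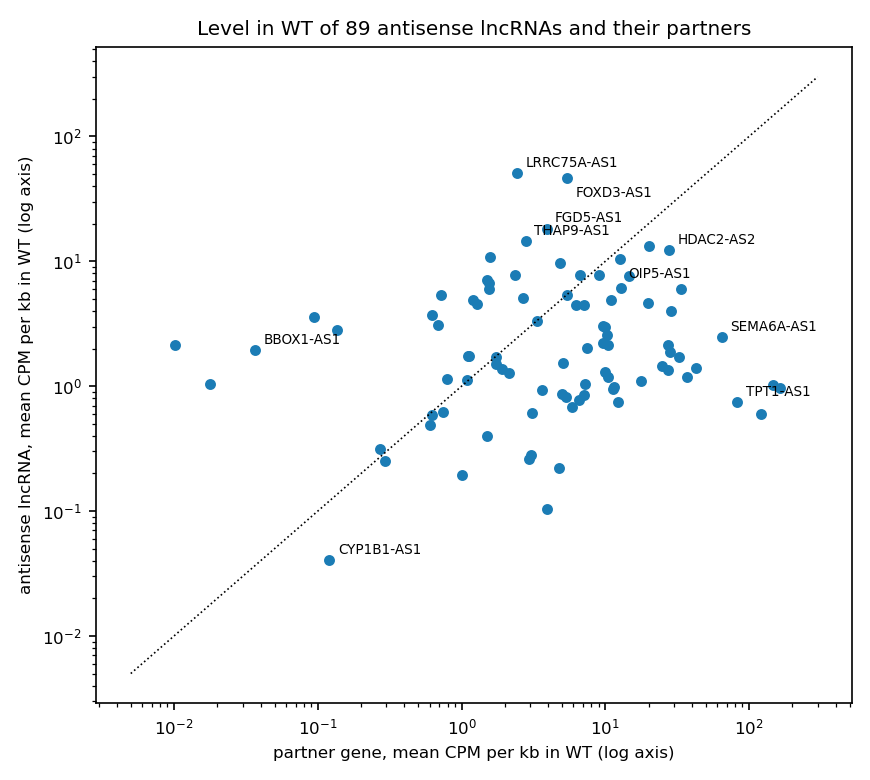
Mean level in the 2 WT libraries of 89 antisense lncRNAs (vertical axis) against their partner genes (horizontal axis), both in CPM per kb of gene length on log axes, 1 point a pair, with the dotted line at equal levels. LRRC75A-AS1 (50.7) and FOXD3-AS1 (46.4) are the highest antisense rows, and BBOX1-AS1 lies far left, with a partner near 0 counts.

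To ask which antisense lncRNAs differ without PCGF6, the 4 PCGF6-KO libraries were compared with the 2 WT libraries with the quasi-likelihood F-test of edgeR, with p adjusted after Benjamini and Hochberg over the 17672 genes that passed a filter on low counts. To be called, a row needed an adjusted p under 0.05 together with a log2 fold change beyond 0.6 in size. All 90 antisense rows were tested, and 16 were called in PCGF6-KO, 9 of them higher and 7 lower (17.8%, beside 23.6% of all tested genes, 14.9% higher and 8.7% lower). At an adjusted p under 0.05 alone, 27 rows passed (beside 37.1% of all tested genes). The median log2 fold change of the 90 rows was −0.04 beside 0.00 over all tested genes, and the median absolute log2 fold change was 0.30 beside 0.32. The share called was thus near or under that of all genes. Of the 86 partners that could be tested, 19 were called, 9 higher and 10 lower (22.1%). The summed count that chose the rows includes the libraries compared: 11 rows reached 300 only through their PCGF6-KO level and 3 only through their WT level, so counts over the rows are a description. The 11 were CYP1B1-AS1, SVIL-AS1, RGMB-AS1, MAGI2-AS3, POT1-AS1, ZNF571-AS1, FLG-AS1, BBOX1-AS1, SDCBP2-AS1, ST20-AS1 and TRHDE-AS1, and the 3 include C1RL-AS1 and PIK3CD-AS2. Of the 76 rows that would reach 300 at both levels, 7 were called. The count of 16 rested on the WT libraries in part and was lower when either was left out. Such a fit holds 1 WT library, which changes the test for every gene. The share called over all genes in such a fit is not given here.

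**Figure D2:**
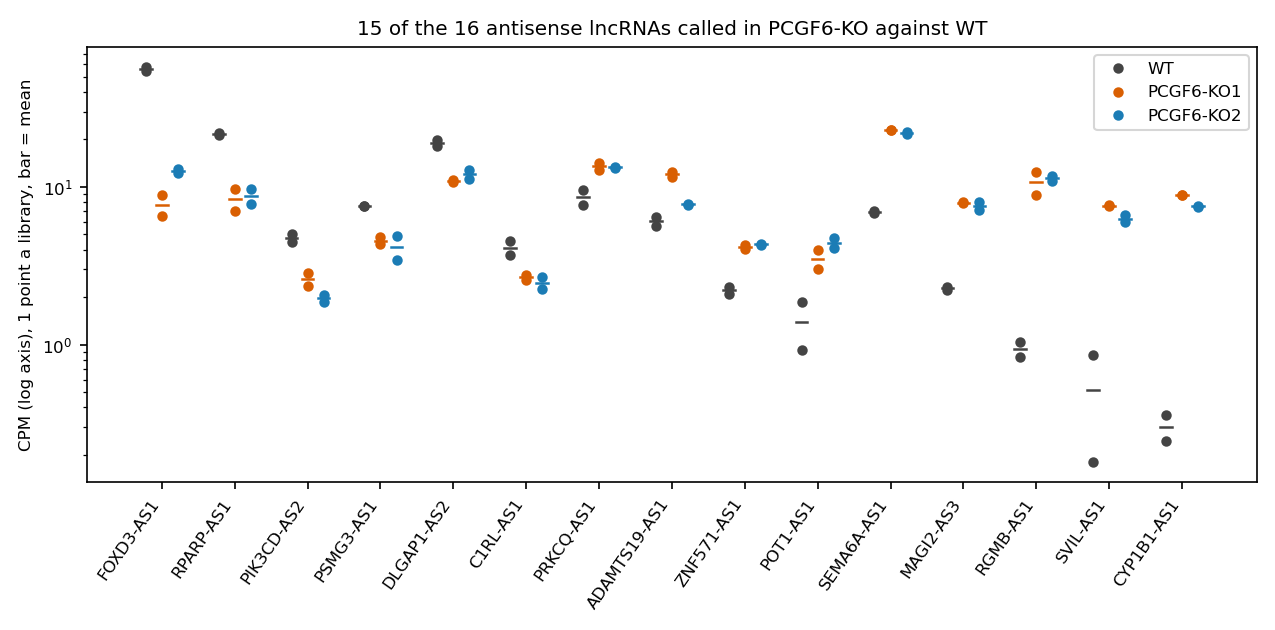
CPM on a log axis of 15 of the 16 antisense lncRNAs called in PCGF6-KO against WT, ordered by log2 fold change, 1 point a library and a bar at each mean (2 libraries each of WT, PCGF6-KO1 and PCGF6-KO2). All 4 PCGF6-KO points of each row lie on one side of both WT points, from FOXD3-AS1 (56.1 CPM in WT, 10.2 in PCGF6-KO) to CYP1B1-AS1 (0.303 CPM in WT, 8.22 in PCGF6-KO).

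CYP1B1-AS1 had the largest increase. It lies on chromosome 2 from 38073447 to 38231651 on the forward strand, across CYP1B1, a cytochrome P450 enzyme that oxidizes estrogens and xenobiotics. Counts of 4 and 6 in WT stood against 171 and 161 in PCGF6-KO1 and 138 and 120 in PCGF6-KO2, with every PCGF6-KO library far above both WT libraries. The log2 fold change was 4.73 (SE 0.27, adjusted p = 2.82e-06 by the edgeR test). CYP1B1 itself rose from 8 and 16 counts in WT to between 1121 and 1211 in the PCGF6-KO libraries, a log2 fold change of 6.48 (SE 0.20, adjusted p = 1.19e-07). Of the antisense exon bases, 6.437% lay in CYP1B1 exons.

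RGMB-AS1 and SEMA6A-AS1 also rose beside partners that rose. RGMB-AS1 (chromosome 5, 98769618 to 98773469, reverse strand) had 17 and 14 counts in WT, 170 and 227 in PCGF6-KO1 and 198 and 188 in PCGF6-KO2. Its log2 fold change was 3.54 (SE 0.24, adjusted p = 6.86e-06), and that of RGMB, a co-receptor for bone morphogenetic proteins, was 2.04 (SE 0.12, adjusted p = 3.62e-06), from 173 and 158 counts in WT to between 695 and 789. In this pair 15.394% of the antisense exon bases lay in partner exons. SEMA6A-AS1 (chromosome 5, 116447547 to 116508276, forward strand) went from 115 and 114 counts in WT to 439, 415, 395 and 359 in PCGF6-KO, and the groups did not overlap. Its log2 fold change of 1.69 (SE 0.10, adjusted p = 4.29e-06) stood beside 1.47 (SE 0.07, adjusted p = 6.86e-07) for SEMA6A, a transmembrane semaphorin of axon guidance. The antisense counts were 0.98% of those of SEMA6A in WT and 1.15% in PCGF6-KO, with 9.473% of the antisense exon bases in partner exons.

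SVIL-AS1, which could not be placed because the annotation holds the symbol more than once, had 14 and 3 counts in WT, 144 and 140 in PCGF6-KO1 and 108 and 106 in PCGF6-KO2. The log2 fold change was 3.73 (SE 0.42, adjusted p = 0.000151), and the WT replicates differed more from each other than those of the other groups. Without WT replicate 1 the value was 5.22 and without WT replicate 2 it was 3.01, and the row was called in both. SVIL, which encodes the actin-binding protein supervillin, rose by less: from 687 and 596 counts in WT to between 1151 and 1321, a log2 fold change of 0.85 (SE 0.08, adjusted p = 7.62e-05). ADAMTS19-AS1, head-to-head with the secreted metalloprotease gene ADAMTS19, had 105 and 95 counts in WT, 238 and 210 in PCGF6-KO1 and 140 and 126 in PCGF6-KO2. It was called over the 4 libraries (log2 fold change 0.71, SE 0.23, adjusted p = 0.0426) and in PCGF6-KO1 (0.98) but not in PCGF6-KO2 (0.36), and is named here after its values were seen. ADAMTS19 rose by 1.10 (SE 0.20, adjusted p = 0.00257).

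In 4 pairs the antisense row was called higher while the partner was not. MAGI2-AS3 (chromosome 7, 79452877 to 79471208, forward strand) starts head-to-head with MAGI2, a scaffold protein of cell junctions and synapses. Counts of 38 and 37 in WT stood against 151 and 146 in PCGF6-KO1 and 146 and 114 in PCGF6-KO2, a log2 fold change of 1.77 (SE 0.17, adjusted p = 6.53e-05). MAGI2 had 530 and 517 counts in WT, 488 and 486 in PCGF6-KO1 and 281 and 278 in PCGF6-KO2. Its log2 fold change was −0.58 (SE 0.21, adjusted p = 0.0564), and in PCGF6-KO2 alone MAGI2 was called lower (−0.95). POT1-AS1 (chromosome 7, 124929873 to 125482966, forward strand) starts at one end of the capitals printed above, beside POT1, the single-strand telomere-binding protein of shelterin. It had 15 and 31 counts in WT, 58 and 72 in PCGF6-KO1 and 74 and 76 in PCGF6-KO2, a log2 fold change of 1.498 (SE 0.32, adjusted p = 0.00613). Without WT replicate 1 the log2 fold change was 1.08 and the row was not called, and without WT replicate 2 it was 2.09. POT1 had between 416 and 469 counts in all 6 libraries (log2 fold change −0.22, SE 0.09, adjusted p = 0.0825).

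The other such pairs were ZNF571-AS1 and PRKCQ-AS1. ZNF571-AS1 went from 38 and 35 counts in WT to 77, 78, 79 and 69 in the PCGF6-KO libraries (log2 fold change 0.94, SE 0.19, adjusted p = 0.00486). The zinc finger gene ZNF571 held 70 and 54 counts in WT against 86 to 102 in the PCGF6-KO libraries, a log2 fold change of 0.51 (SE 0.21, adjusted p = 0.0834). PRKCQ-AS1, head-to-head with PRKCQ, which encodes protein kinase C theta, went from 156 and 129 counts in WT to 246, 259, 239 and 216 in the PCGF6-KO libraries (log2 fold change 0.63, SE 0.13, adjusted p = 0.00526). PRKCQ passed the adjusted p but stayed under the fold change threshold at 0.47 (SE 0.08, adjusted p = 0.00223). Each of these rows lost its call without WT replicate 2, with log2 fold changes of 0.86 for ZNF571-AS1 and 0.49 for PRKCQ-AS1.

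FOXD3-AS1 had the largest decrease. It lies on chromosome 1 from 63320878 to 63324441 on the reverse strand, beside and across FOXD3, a forkhead transcription factor of pluripotent cells and the neural crest. Its level was 56.1 ± 2.43 CPM in WT (SD, n = 2), 7.72 ± 1.66 in PCGF6-KO1 (n = 2) and 12.6 ± 0.527 in PCGF6-KO2 (n = 2). The libraries of these groups stood at 57.8 and 54.4, 8.89 and 6.55, and 13.0 and 12.2 CPM. Every PCGF6-KO library lay far below both WT libraries, with a log2 fold change of −2.47 (SE 0.21, adjusted p = 3.03e-05). FOXD3 fell from 192 and 179 counts to between 26 and 35, a log2 fold change of −2.74 (SE 0.20, adjusted p = 1.15e-05). Per kb in WT the antisense row stood at 46.4 CPM and FOXD3 at 5.40. Of the FOXD3-AS1 exon bases, 27.565% lay in FOXD3 exons. In GENCODE the FOXD3-AS1 gene starts 1874 bases from the FOXD3 start, inside FOXD3, so the pair counts among the other arrangements there, although the RefSeq starts printed above are divergent.

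RPARP-AS1 (chromosome 10, 102449816 to 102461106, forward strand, C10orf95-AS1 in GENCODE), whose partner had no row, had 348 and 368 counts in WT, 135 and 177 in PCGF6-KO1 and 142 and 156 in PCGF6-KO2. The log2 fold change was −1.34 (SE 0.15, adjusted p = 0.000141). PIK3CD-AS2 went from 82 and 75 counts in WT to 45, 52, 34 and 33 in the PCGF6-KO libraries (log2 fold change −1.06, SE 0.22, adjusted p = 0.00537), and was not called without WT replicate 1. Its partner PIK3CD, a catalytic subunit of phosphoinositide 3-kinase, had a log2 fold change of −0.40 (SE 0.11, adjusted p = 0.0211), under the fold threshold. DLGAP1-AS2 (chromosome 18, 3603000 to 3610103, forward strand), whose window is printed above, lies within DLGAP1 with no exon base in common. By these GENCODE positions the printed RefSeq window, with its E-box, lies inside the DLGAP1-AS2 gene and not before its start. The row went from 325 and 303 counts in WT to 211, 196, 204 and 206 in the PCGF6-KO libraries, a log2 fold change of −0.73 (SE 0.12, adjusted p = 0.00115). DLGAP1, a scaffold protein of the postsynaptic density, had 319 and 304 counts in WT, 417 and 373 in PCGF6-KO1 and 271 and 249 in PCGF6-KO2 (log2 fold change −0.05, SE 0.17, adjusted p = 0.833).

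PSMG3-AS1 and C1RL-AS1 fell beside partners that fell. PSMG3-AS1 went from 123 and 126 counts in WT to 83, 87, 89 and 55 in the PCGF6-KO libraries (log2 fold change −0.79, SE 0.18, adjusted p = 0.00892), and PSMG3, a proteasome assembly chaperone, fell by 0.90 on the log2 scale (SE 0.14, adjusted p = 0.00106). C1RL-AS1 went from 74 and 62 counts in WT to 53, 47, 41 and 43 in the PCGF6-KO libraries (log2 fold change −0.68, SE 0.20, adjusted p = 0.0261). C1RL, a serine protease related to complement C1r, fell from 467 and 496 counts to 327 and 309 in PCGF6-KO1 and 192 and 154 in PCGF6-KO2 (log2 fold change −1.10, SE 0.22, adjusted p = 0.00461). PSMG3-AS1 and C1RL-AS1 each lost their call when WT replicate 1 was left out, and also when WT replicate 2 was.

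Across the 86 pairs in which both rows were tested, both were called in the same direction in 8. With either WT library left out it was 5. Both were higher for CYP1B1, RGMB, SEMA6A, SVIL and ADAMTS19, and both lower for FOXD3, PSMG3 and C1RL. By edgeR at these thresholds 0 pairs were called in opposite directions, as by DESeq2 and by an unadjusted p under 0.05 with over 1.5-fold change, while the antisense row alone was called in 6, the partner alone in 11 and neither in 61. With the mean of the clones against WT in place of the 4 libraries as 1 group, 1 pair was called in opposite directions, MAGI2-AS3 with MAGI2, and so it was with either of the PCGF6-KO1 libraries left out. The log2 fold changes had the same sign in 55 of the 86 pairs. Taken singly, the antisense row was called in 14 of the 86 and the partner in 19. No share over other pairs of genes is set beside these counts. They describe these pairs and do not show a trait of antisense pairs. Across pairs, the correlation of the log2 fold changes was 0.731 (Pearson) and 0.452 (Spearman). The pairs are not independent replicates and share libraries, and the 2 rows of a pair may share reads where their exons overlap. Without the CYP1B1-AS1, FOXD3-AS1, RGMB-AS1 and SVIL-AS1 pairs the correlations were 0.395 and 0.369 over 82 pairs. Of the 8, the CYP1B1-AS1, RGMB-AS1 and SVIL-AS1 pairs entered only through the PCGF6-KO level of the antisense row and the C1RL-AS1 pair only through its WT level, and in the 74 pairs whose antisense row would reach 300 at both levels 4 were called in the same direction, with correlations of 0.61 (Pearson) and 0.362 (Spearman). In the 32 head-to-head pairs the Pearson and Spearman values were 0.246 and 0.284, and in the 52 other overlapping pairs 0.84 and 0.515. The 52 hold the CYP1B1-AS1, FOXD3-AS1 and RGMB-AS1 pairs, which were among those whose removal lowered the correlation over all pairs. Values by arrangement without them are not given here. The difference between the arrangements was not tested.

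**Figure D3:**
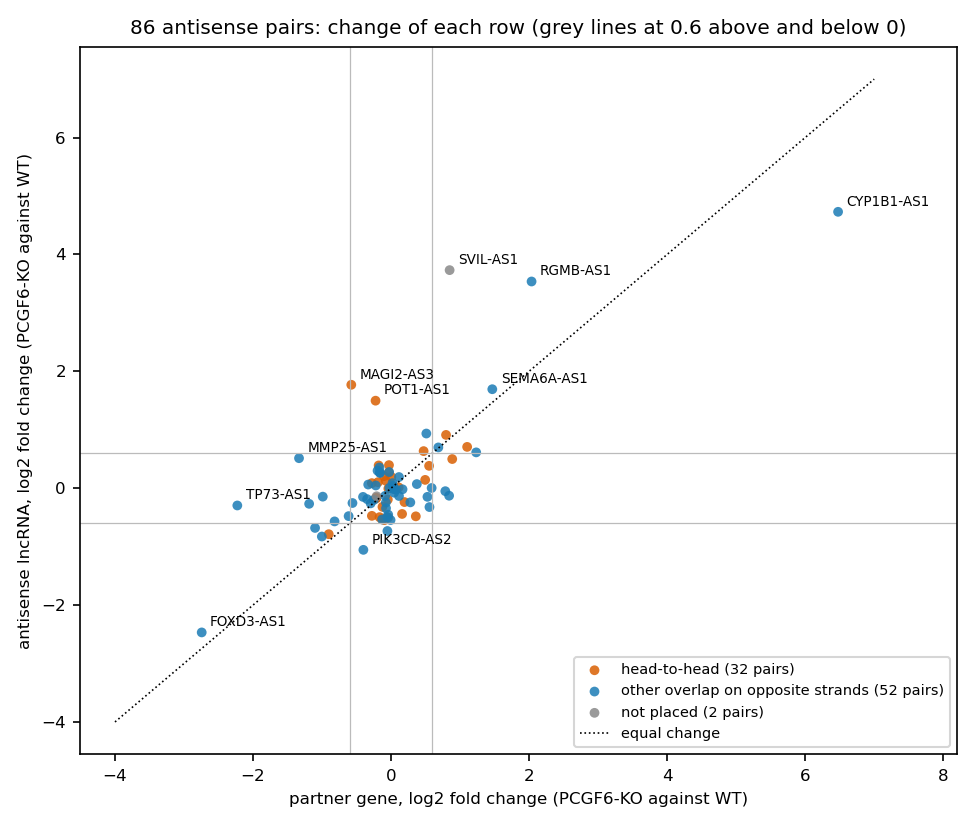
Log2 fold change (PCGF6-KO against WT) of the antisense lncRNA (vertical axis) against that of its partner gene (horizontal axis), 1 point for each of 86 pairs, coloured by arrangement, with grey lines at the fold threshold of 0.6 in both directions and a dotted line of equal change. Most pairs lie near 0 on both axes. CYP1B1-AS1, RGMB-AS1 and SEMA6A-AS1 lie with their partners at upper right and FOXD3-AS1 at lower left, while MAGI2-AS3 and POT1-AS1 lie high above partners near or under 0.

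Some of the 11 pairs in which the partner alone was called hold abundant antisense RNAs. FGD5-AS1 had a log2 fold change of −0.14 (SE 0.08, adjusted p = 0.171), while FGD5, a guanine nucleotide exchange factor for CDC42 known from endothelial cells, fell by 0.99 on the log2 scale (SE 0.10, adjusted p = 8.34e-05). LRRC75A-AS1 had −0.27 (adjusted p = 0.149), while LRRC75A fell by 1.19 (SE 0.22, adjusted p = 0.00277). Among rows looked at after their values were seen, TP73-AS1 held 761 and 699 counts in WT against 565 to 694 in the PCGF6-KO libraries (log2 fold change −0.30, SE 0.08, adjusted p = 0.0154), whereas TP73, of the p53 family, had 134 and 151 counts in WT, 43 and 52 in PCGF6-KO1 and 26 and 12 in PCGF6-KO2 (−2.23, SE 0.37, adjusted p = 0.00157). For MMP25-AS1 the log2 fold change was 0.51 (adjusted p = 0.0628) beside −1.33 (SE 0.18, adjusted p = 0.000537) for MMP25, a membrane-anchored matrix metalloprotease, with 20.063% of the antisense exon bases in MMP25 exons. OIP5-AS1 (0.01, adjusted p = 0.972), HDAC2-AS2 (0.09, adjusted p = 0.616) and THAP9-AS1 (0.04, adjusted p = 0.841) did not pass the test, and the sign of OIP5-AS1 turned under upper-quartile scaling (−0.03).

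Whether an antisense row moved apart from its partner was compared through their ratio within each library, in which library size cancels. With 2 against 4 libraries an exact permutation test of 1 pair can reach no less than p = 0.133 (two-sided). The ratios were therefore also compared by limma over the 312 antisense pairs of any summed count in which both rows were tested. This choice was made after the data were seen. The 312 include the 86 pairs described here, and also the PAX8-AS1 and ZNF433-AS1 pairs, which the rule left out. The log2 ratio differed between PCGF6-KO and WT at an adjusted p under 0.05 in 19 of the 86 pairs, 10 higher and 9 lower (22.1%, beside 20.2% of the 312 pairs). Of the 28 pairs named by rule, 13 had ratios that did not overlap between WT and PCGF6-KO, beside 40 of all 89 pairs (44.9%) and 41% of the 312, so this share is near the background. The ratio rose most for SVIL-AS1 (by 3.15 on the log2 scale, 95% interval 2.38 to 3.93, adjusted p = 1.1e-05 by limma), MAGI2-AS3 (2.37, 1.91 to 2.84, adjusted p = 2.1e-06), TP73-AS1 (2.09, 1.31 to 2.88, adjusted p = 0.000595), MMP25-AS1 (1.85, 1.43 to 2.27, adjusted p = 5.7e-06) and POT1-AS1 (1.78, 1.18 to 2.37, adjusted p = 0.000213). RGMB-AS1 rose by more than RGMB (1.47, 1.10 to 1.84, adjusted p = 1.5e-05). LRRC75A-AS1 (0.93, adjusted p = 0.0272), FGD5-AS1 (0.84, adjusted p = 0.000516), ZBED3-AS1 (0.57) and WAC-AS1 (0.42) completed the 10. Of the 10, SVIL-AS1, MAGI2-AS3, POT1-AS1 and RGMB-AS1 reached the summed count only through their PCGF6-KO level. Counts of differing ratios over these rows are therefore a description.

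The ratio fell most for CYP1B1-AS1 (by 1.86 on the log2 scale, limma adjusted p = 2.5e-05), whose partner rose by more. This row too reached the summed count only through its PCGF6-KO level. DLGAP1-AS2 fell against DLGAP1 (−0.66, adjusted p = 0.0236). The other 7 pairs with a lower ratio, from −0.98 for PXN-AS1 to −0.52 for STARD4-AS1, were those of PXN, LOXL1, ZNF674, EPB41L4A, GABPB1, PCBP1 and STARD4. In 5 of the 8 pairs called in the same direction no difference in ratio passed the test, with 95% intervals, not adjusted for the number of pairs, of −0.06 to 0.51 for SEMA6A-AS1 (limma adjusted p = 0.277), −0.30 to 0.76 for FOXD3-AS1 (0.593), −0.72 to −0.07 for ADAMTS19-AS1 (0.0858), −0.33 to 0.55 for PSMG3-AS1 (0.803) and −0.06 to 1.02 for C1RL-AS1 (0.221). The ratios of SEMA6A-AS1, all higher in PCGF6-KO, and of ADAMTS19-AS1, all lower, did not overlap between the groups. Differences in ratio within these intervals could have been missed in these libraries.

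**Figure D4:**
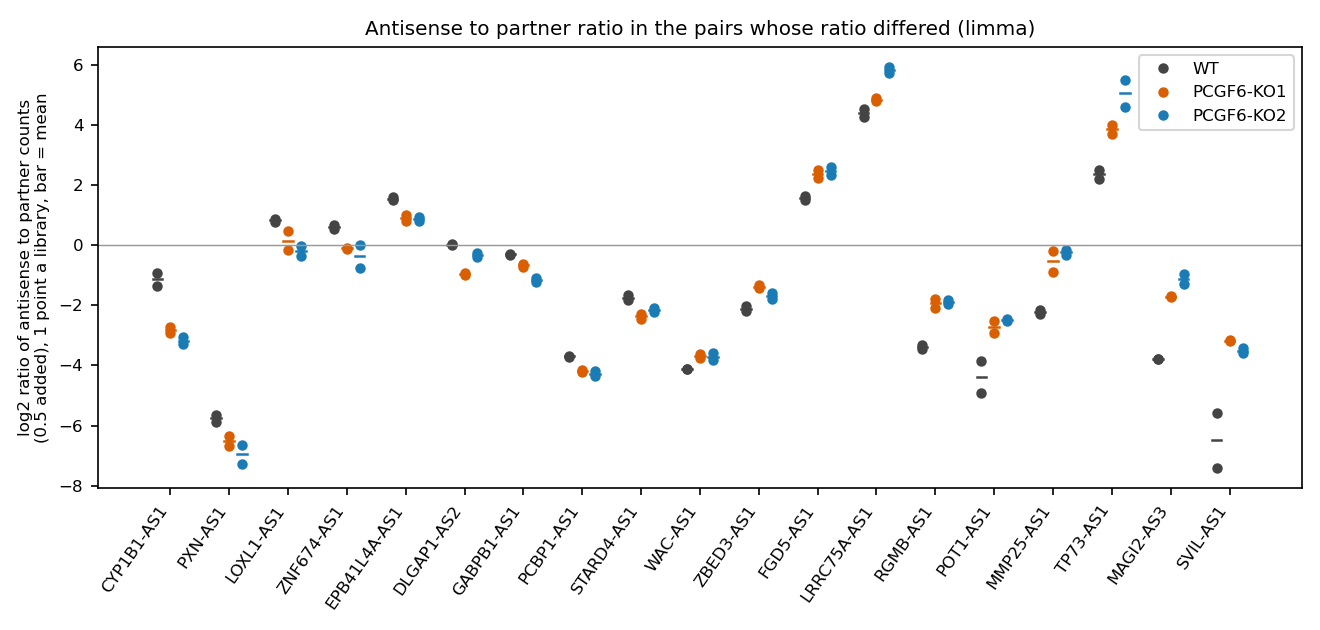
Log2 ratio of antisense to partner counts (0.5 added to each) in each library for the 19 pairs whose ratio differed between PCGF6-KO and WT by limma, ordered by the difference, 1 point a library and a bar at each mean. SVIL-AS1, MAGI2-AS3 and TP73-AS1 at the right stand higher in all 4 PCGF6-KO libraries, and CYP1B1-AS1 at the left stands lower.

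The clones were then taken apart in a 3-group fit of the same edgeR test with the same thresholds. In PCGF6-KO1, 19 of the 90 antisense rows were called, 10 higher and 9 lower (beside 24.8% of all tested genes, 16% higher and 8.8% lower). In PCGF6-KO2, 26 were called, 13 higher and 13 lower (beside 29.4%, 16.9% higher and 12.5% lower). At an adjusted p under 0.05 with no fold threshold, 37 antisense rows passed in PCGF6-KO1 (beside 45.3% of all genes), 42 in PCGF6-KO2 (50.4%) and 14 between the clones (19.5%). The comparisons with WT share the WT libraries. Of the 16 rows called over the 4 libraries, 15 were called with the same sign in each clone, and the exception was ADAMTS19-AS1. The 16 were chosen on these same libraries, so the clones are no separate check of them. The like share over all called genes is not given here. The log2 fold changes in PCGF6-KO1 and PCGF6-KO2 were 4.84 and 4.60 for CYP1B1-AS1, 3.87 and 3.59 for SVIL-AS1 and −2.86 and −2.15 for FOXD3-AS1.

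The clones differed from each other in 8 antisense rows, 3 higher and 5 lower in PCGF6-KO2 (beside 7.87% of all tested genes, 3.73% higher and 4.14% lower), and in 6 partners. ZNF528-AS1, which starts 58 bases from the zinc finger gene ZNF528 with no exon base in common, had 98 and 107 counts in WT, 142 and 128 in PCGF6-KO1 and 275 and 278 in PCGF6-KO2. It was higher in PCGF6-KO2 by 1.16 on the log2 scale (SE 0.134, adjusted p = 3.89e-07 by the edgeR test). ZNF528 went the same way, with 268 and 223 counts in WT, 350 and 316 in PCGF6-KO1 and 609 and 554 in PCGF6-KO2 (0.93, SE 0.103, adjusted p = 2.06e-07). JAKMIP2-AS1 had 188 and 183 counts in WT, 150 and 163 in PCGF6-KO1 and 68 and 76 in PCGF6-KO2, so that PCGF6-KO2 stood lowest and no group overlapped another. It differed between the clones by −0.99 (SE 0.17, adjusted p = 0.000108), while JAKMIP2, a microtubule-associated protein of neurons, had 512 and 414 counts in PCGF6-KO1 and 451 and 426 in PCGF6-KO2, against 824 and 844 in WT.

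FLG-AS1 had 48 and 31 counts in WT, 46 and 63 in PCGF6-KO1 and 90 and 77 in PCGF6-KO2, and was higher in PCGF6-KO2 than in PCGF6-KO1 by 0.74 on the log2 scale (SE 0.231, adjusted p = 0.0245). FLG, the epidermal protein filaggrin, differed by 0.61 in the same direction (SE 0.183, adjusted p = 0.0195). BOLA3-AS1, head-to-head with BOLA3, a mitochondrial iron-sulfur cluster protein, had 122 and 146 counts in WT, 134 and 124 in PCGF6-KO1 and 80 and 63 in PCGF6-KO2 (difference −0.73, SE 0.174, adjusted p = 0.00359). FOXD3-AS1 was less reduced in PCGF6-KO2, by 0.70 (SE 0.135, adjusted p = 0.000415). PCGF6 counts too were higher in PCGF6-KO2 than in PCGF6-KO1, and the part of this in the clone differences was not tested.

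**Figure D5:**
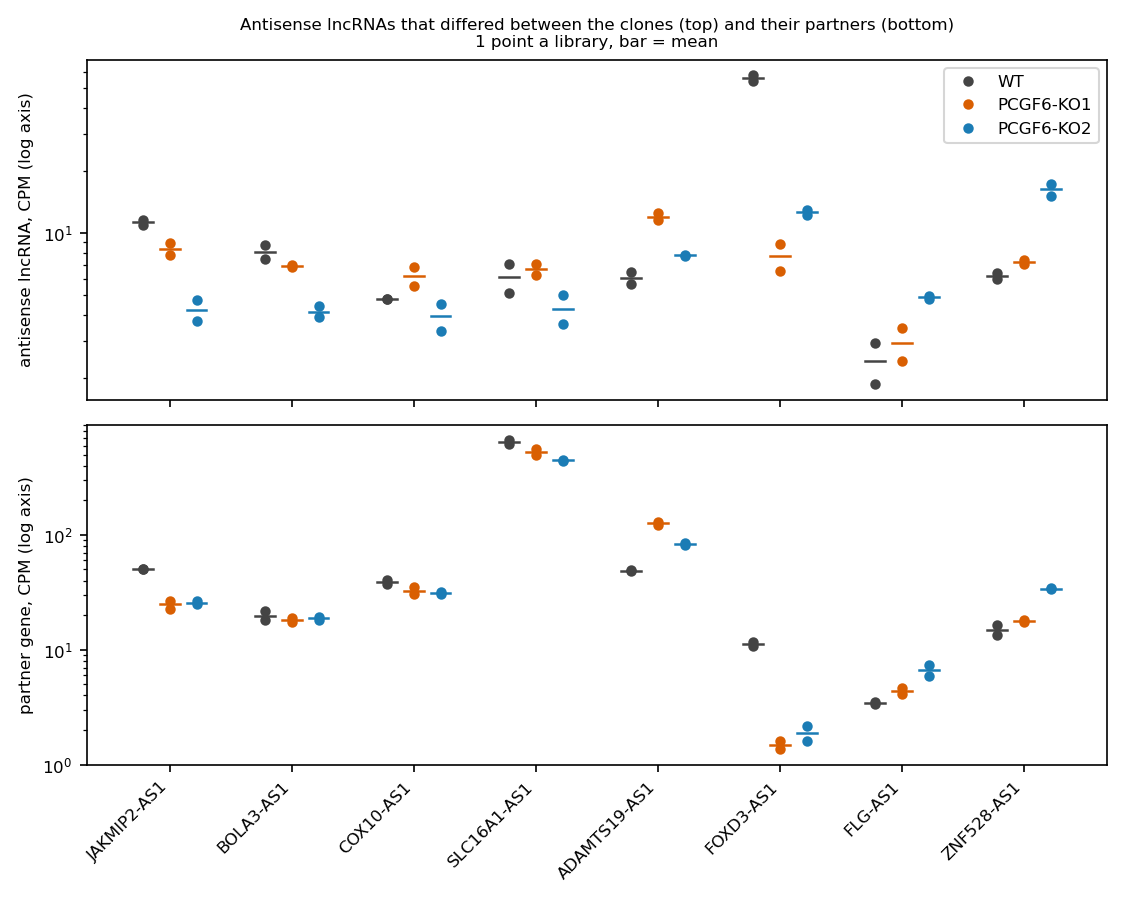
CPM on log axes of the 8 antisense lncRNAs that differed between PCGF6-KO2 and PCGF6-KO1 (top) and of their partner genes (bottom), 1 point a library and a bar at each mean, with WT for reference. ZNF528-AS1 and FLG-AS1 stand higher in PCGF6-KO2 together with their partners, while JAKMIP2-AS1 and BOLA3-AS1 stand lower in PCGF6-KO2 beside partners at like levels in both clones.

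The rows nearest the summed count of 300 show what the threshold left in and out. Just above it were SDCBP2-AS1 (313 counts), ST20-AS1 (315) and TRHDE-AS1 (315), with log2 fold changes of 0.35, 0.38 and 0.61. Just below it were PAXIP1-AS2 (298), ZNF582-AS1 (295) and TSPEAR-AS1 (294), with log2 fold changes of −0.22, −0.67 and 1.90. Of the 1115 antisense rows below the threshold 239 could be tested, and 46 of these were called, 32 higher and 14 lower (19.2%, 13.4% higher and 5.86% lower, beside 23.6%, 14.9% and 8.7% of all tested genes). Rows of other noncoding suffixes were few: 4 of 33 tested divergent transcripts (-DT), 1 of 12 intronic transcripts (-IT) and 1 of 2 overlapping transcripts (-OT) were called, beside the same 23.6% of all tested genes.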

How the data were processed

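RNA-seq counts of the 6 libraries were used. Per the labels and the study's methods, the authors trimmed reads with Trim Galore (0.6.2), aligned them to GRCh38 with HISAT2 (2.1.0) and obtained gene counts with featureCounts, and they deposited these raw counts for 57133 genes. The annotation release, strand setting and handling of multi-mapped reads are not given in the sources used here, which makes overlapping genes uncertain. ChIP-seq signal was not used here.

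The members, gene lists and tests were chosen with earlier results of these data known. Low-count genes were dropped by filterByExpr of edgeR, libraries were scaled by TMM, and glmQLFTest (edgeR 4.0.16, limma 3.58.1, R 4.3.3) was run on all 17672 remaining genes, at a common biological coefficient of variation of 12%. Genes named by rule were, among members, the 10 largest increases and 10 largest decreases called in both clones, any called against its partner, the 5 most abundant, the 5 with the highest ratio to their partner in WT, the 5 with the largest clone difference and the 3 on either side of the threshold. The ranking by ratio left out pairs whose partner had few WT counts. Of the rows this rule names, 1 is counted in the totals but not reported here. The ratio test with limma was added after the data were seen. Positions came from GENCODE release 44, with 12 antisense rows matched by an older symbol. On simulated counts of PCGF6-KO against WT, the fit recovered 196 of 200 changed genes, with 2 unchanged ones called, in 17240. Of the 200 genes, 102 had been given a 4-fold difference, and all 102 were called. The simulated ratio comparison called 30 of 30 changed pairs and 1 other out of 312. Recovery of log2 fold changes near 0.6, of ratio differences as small as 0.42 and of rows with few counts was not tested. Both simulations gave the clones equal levels and all genes the same spread, whereas 7.87% of all tested genes differed between the clones. The number of unchanged genes called in the simulations therefore need not hold for these data. DESeq2 (1.42.0) was an alternative. Python 3.11.15 with pandas 2.3.3, numpy 2.4.6, scipy 1.17.1 and matplotlib 3.10.9 was used.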

Additional observations from a re-analysis of the deposited data

Results flagged for a closer look

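Differences between the clones came from the quasi-likelihood F-test of edgeR with p adjusted after Benjamini and Hochberg, and are given as PCGF6-KO2 minus PCGF6-KO1 on the log2 scale. Of the antisense rows, ZNF528-AS1 (1.16), FLG-AS1 (0.74) and FOXD3-AS1 (0.70) were higher in PCGF6-KO2. JAKMIP2-AS1 (−0.99), BOLA3-AS1 (−0.73), COX10-AS1 (−0.66, SE 0.194, adjusted p = 0.0173), SLC16A1-AS1 (−0.64, SE 0.195, adjusted p = 0.0208) and ADAMTS19-AS1 (−0.62, SE 0.14, adjusted p = 0.00192) were lower. Of the partners, ZNF528 (0.93) and FLG (0.61) were higher, and TP73 (−1.20, adjusted p = 0.00526), C1RL (−0.75, adjusted p = 2.5e-05), MAGI2 (−0.67, adjusted p = 2.39e-05) and ADAMTS19 (−0.61, adjusted p = 1.65e-07) were lower. COX10-AS1, SLC16A1-AS1 and ADAMTS19-AS1 are named after their values were seen.

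In 2 of 57 groups of 4 PCGF6-KO libraries, 1 library stood apart by Dixon's criterion, which chance alone meets in about 1 of 20 groups. MAGI2-AS3 had 7.105 CPM in PCGF6-KO2 replicate 2 beside 7.898 to 8.052 in the other 3, and POT1 had 26.11 CPM in the same library beside 22.88 to 23.38.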

How the results depend on the processing

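The number of antisense rows called in PCGF6-KO against WT (16) was 27 at an adjusted p under 0.05 alone, 47 of 220 rows at a summed count of at least 100, 5 of 35 at 1000 and 7 of 76 among rows that reach 300 at both levels, the last chosen after seeing the data. In PCGF6-KO1 (19) these were 37, 55 and 5, and in PCGF6-KO2 (26) 42, 63 and 9. Between the clones (8) they were 14, 15 and 2, and DESeq2 called 4. Partners called (19) were 49 at 100 and 6 at 1000, pairs called in the same direction (8) were 25 and 2, and 4 among rows that reach 300 at both levels, and pairs in opposite directions (0) were 1 at 100 and 1 with the mean of the clones. Of the named pairs whose ratios did not overlap (13), limma called 8. Leaving out each library in turn gave 10 to 19 antisense rows (10 without WT replicate 1), 16 to 22 partners, 5 to 10 pairs in the same direction (5 without either WT library) and 0 to 1 in opposite directions (1, MAGI2-AS3, without either PCGF6-KO1 library). It gave 17 to 19 rows in PCGF6-KO1, 24 to 27 in PCGF6-KO2, 5 to 8 between the clones (5 without PCGF6-KO1 replicate 2 or PCGF6-KO2 replicate 1) and 13 to 18 named pairs. The cause of these shifts was not tested, except that other summed counts and fewer libraries change what is tested. Shares called over all genes are given for the adjusted p alone and not for the other settings. The other shifts are thus not set against those of all genes. With the replicate number as a block, 15 antisense rows and 7 pairs in the same direction were called. Deviations of same-numbered libraries correlated at 0.0679, 0.08 and 0.194 over 13633 genes, so the numbers were not shown to pair the libraries.

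Signs near 0 turned. OIP5-AS1 was −0.02842 under upper-quartile scaling and −0.00134 with the replicate block, and −0.03345 to 0.06208 without 1 library. Without 1 library THAP9-AS1 was −0.01104 to 0.1227. Of the partners, HDAC2 was −0.01255 and THAP9 −0.00253 under upper-quartile scaling. Without 1 library BOLA3 was −0.2219 to 0.03982, DLGAP1 −0.1454 to 0.04044, HDAC2 −0.01535 to 0.06308, OIP5 −0.1262 to 0.0844 and THAP9 −0.01807 to 0.1018. Called rows lost their call as given in the report, and C1RL-AS1 also with DESeq2 and without PCGF6-KO2 replicate 1. Without WT replicate 1 or 2, SVIL-AS1 moved to 5.22 or 3.01 and stayed called. The median log2 fold change over all genes was −0.03 under upper-quartile scaling and 0.10 with DESeq2 and with no filter, which test more genes. Depth limits rows of few counts, such as WT levels of CYP1B1-AS1 and SVIL-AS1.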
